A study of Mus musculus with 14 samples.

Results

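Keratins are the intermediate filament proteins of epithelial cells. The 6 keratin genes described here were measured in mouse testis material labelled as postnatal male germ cells. They are Krt7 and Krt8 of the type II (basic) family and Krt18, Krt19, Krt17 and Krt27 of the type I (acidic) family. They are 6 of the 24340 gene symbols in the files, which also list 46 other keratins. All 6 were chosen by their RPKM in these same libraries, because several of them differed with day or genotype. Their levels and changes are therefore given as a description. Where the fit across all genes called one of the 6, the call is stated beside the share of all genes called, and nothing is read from it.

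Transcripts were sequenced from C57BL/6 testis material labelled as postnatal male germ cells, in 14 libraries that form 7 groups of 2. Postnatal day 3 (P3) has 5 groups: P3 WT (WT), P3 Ctrl (Vasa-Cre; Jmjd1a-/+; Jmjd1b-/+), P3 Jmjd1aKO (Vasa-Cre; Jmjd1a-/-; Jmjd1b-/+), P3 Jmjd1bKO (Vasa-Cre; Jmjd1a-/+; Jmjd1b-/-) and P3 DKO (Vasa-Cre; Jmjd1a-/-; Jmjd1b-/-). Postnatal day 7 (P7) has P7 Ctrl and P7 DKO, with the genotypes of the P3 groups of the same name. All groups but P3 WT carry Vasa-Cre, a Cre recombinase driven in the germline, and P3 Ctrl differs from P3 WT in both Cre and gene copies, which cannot be told apart. No label tells if both libraries of a group are from different animals. The p-values below therefore reflect spread among libraries, which may be technical.

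A keratin filament is built from pairs of 1 type I and 1 type II protein, so a cell that makes filaments expresses members of both families. KRT8 and KRT18 are the usual pair of simple, one-layered epithelia, KRT7 and KRT19 are found in ducts and other simple epithelia, KRT17 in hair follicles and stressed or injured epidermis, and KRT27 in the inner root sheath of the hair follicle. Filaments are anchored at desmosomes by desmoplakin and tied to other parts of the cell by plectin and related linkers. Jmjd1a and Jmjd1b, listed in the files as Kdm3a and Kdm3b, encode demethylases of lysine 9 of histone H3, a residue whose methylation marks silenced genes.

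Levels are RPKM, fragments corrected for how long the transcript is and how deeply its library was sequenced. They are not corrected for differences between libraries in which RNAs make up the total. The depth estimated from the steps between RPKM values was 13.6 and 14.97 M (mega) fragments in P3 WT, 21.7 to 24.6 M at P7, and 26.1 to 50.4 M in the other P3 libraries. The targeted genes followed the labels. Kdm3a stood at 9.83 and 9.84 RPKM in P3 Jmjd1aKO, 12.1 and 14.3 in P3 DKO and 8.97 and 7.59 in P7 DKO, against 25.4 to 28.4 in P3 Ctrl, P3 Jmjd1bKO and P7 Ctrl and 44.1 and 45.2 in P3 WT. Kdm3b stood at 4.72 and 7.51 RPKM in P3 Jmjd1bKO, 4.26 and 4.48 in P3 DKO and 6.49 and 6.73 in P7 DKO, against 9.81 to 17.3 in P3 Ctrl, P3 Jmjd1aKO and P7 Ctrl and 26.9 and 26.9 in P3 WT. Germ cell markers were high in every library, with a summed level of 1504 to 2146 RPKM over 7 genes that include Ddx4 and Dazl. A pair of libraries stood apart, replicate 2 of P3 Jmjd1aKO and replicate 2 of P3 Jmjd1bKO. Their summed level of 12 Sertoli cell markers was 828 and 1016 RPKM, against 40.6 to 222 RPKM in the other 12 libraries. Fits and correlations were repeated without them, and none of the 84 calls made for other named genes ended. Values without them are given where they add something. In bulk RNA, fewer cells of a type and less RNA per cell cannot be told apart.

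Krt18 had the highest level of any keratin in all 10 P3 libraries. In the order replicate 1, replicate 2, which is used throughout, Krt18 stood at 10.0 and 9.41 RPKM in P3 WT, 50.1 and 22.7 in P3 Ctrl, 60.03 and 25.4 in P3 Jmjd1aKO, 44.1 and 12.03 in P3 Jmjd1bKO, and 57.9 and 44.5 in P3 DKO. At day 7 it stood at 0.772 and 0.998 RPKM in P7 Ctrl and at 2.57 and 0.104 in P7 DKO. The lowest P3 library thus lay above the highest P7 library, P3 WT lay below the other P3 groups, and those other 4 groups overlapped. Replicates of P3 Ctrl differed by 2.21 times and those of P3 Jmjd1bKO by 3.66 times.

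Krt8, the type II partner of Krt18, was likewise high at P3 and near 0 at P7. It stood at 2.67 and 1.85 RPKM in P3 WT, 14.7 and 6.95 in P3 Ctrl, 17.6 and 14.02 in P3 Jmjd1aKO, 14.9 and 7.45 in P3 Jmjd1bKO, and 16.3 and 17.9 in P3 DKO. At day 7 it was at 0.262 and 0.384 RPKM in P7 Ctrl and 0.723 and 0.338 in P7 DKO. Every P3 library lay above every P7 library, and both P3 DKO libraries lay above both P3 Ctrl libraries. The ratio of Krt18 to Krt8 was between 1.61 and 5.08 in the 10 P3 libraries.

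Krt7, the duct keratin, was high in the same libraries as Krt8 and Krt18. It stood at 2.22 and 2.85 RPKM in P3 WT, 19.8 and 10.1 in P3 Ctrl, 14.4 and 6.05 in P3 Jmjd1aKO, 20.6 and 3.88 in P3 Jmjd1bKO, and 16.4 and 17.4 in P3 DKO. At day 7 it was at 0.425 and 0.314 RPKM in P7 Ctrl and at 0.0289 and 0.150 in P7 DKO. The P3 and P7 libraries did not overlap, and the 5.29-fold gap between the replicates of P3 Jmjd1bKO was the widest of the 6 genes at P3. Levels this low at P7 rest on few fragments, so no order is read among the P7 libraries under 1 RPKM.

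Krt19, a type I keratin with a very short tail, varied less between days. It stood at 5.93 and 3.93 RPKM in P3 WT, 11.5 and 8.32 in P3 Ctrl, 6.04 and 3.40 in P3 Jmjd1aKO, 13.2 and 7.77 in P3 Jmjd1bKO, and 6.92 and 6.11 in P3 DKO. At day 7 it was at 1.29 and 0.772 RPKM in P7 Ctrl and 1.36 and 0.640 in P7 DKO. P3 Ctrl and P3 Jmjd1bKO were the high groups, and both libraries of P3 Jmjd1aKO and of P3 DKO lay below both of P3 Ctrl.

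Krt17, the stress-related keratin, was highest in P3 Ctrl and P3 Jmjd1bKO, and within each day it was lowest in the DKO group. It stood at 2.50 and 2.45 RPKM in P3 WT, 8.25 and 5.20 in P3 Ctrl, 4.16 and 3.12 in P3 Jmjd1aKO, 11.9 and 4.71 in P3 Jmjd1bKO, and 1.23 and 1.96 in P3 DKO. At day 7 it was at 1.19 and 1.22 RPKM in P7 Ctrl and was listed at 0 in both P7 DKO libraries. P3 DKO was the only P3 group with both libraries under those of P3 WT.

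Krt27, the root sheath keratin, had a different order, with P3 DKO at the top. It stood at 1.35 and 1.40 RPKM in P3 WT, 6.23 and 6.91 in P3 Ctrl, 9.69 and 8.57 in P3 Jmjd1aKO, 6.16 and 4.20 in P3 Jmjd1bKO, and 12.2 and 14.5 in P3 DKO. At day 7 it was at 2.83 and 2.44 RPKM in P7 Ctrl and 0.956 and 0.717 in P7 DKO. Its replicates were close, differing by at most 1.47 times, and both P7 Ctrl libraries lay above both P3 WT libraries, unlike in the 5 other genes.

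**Figure D1:**
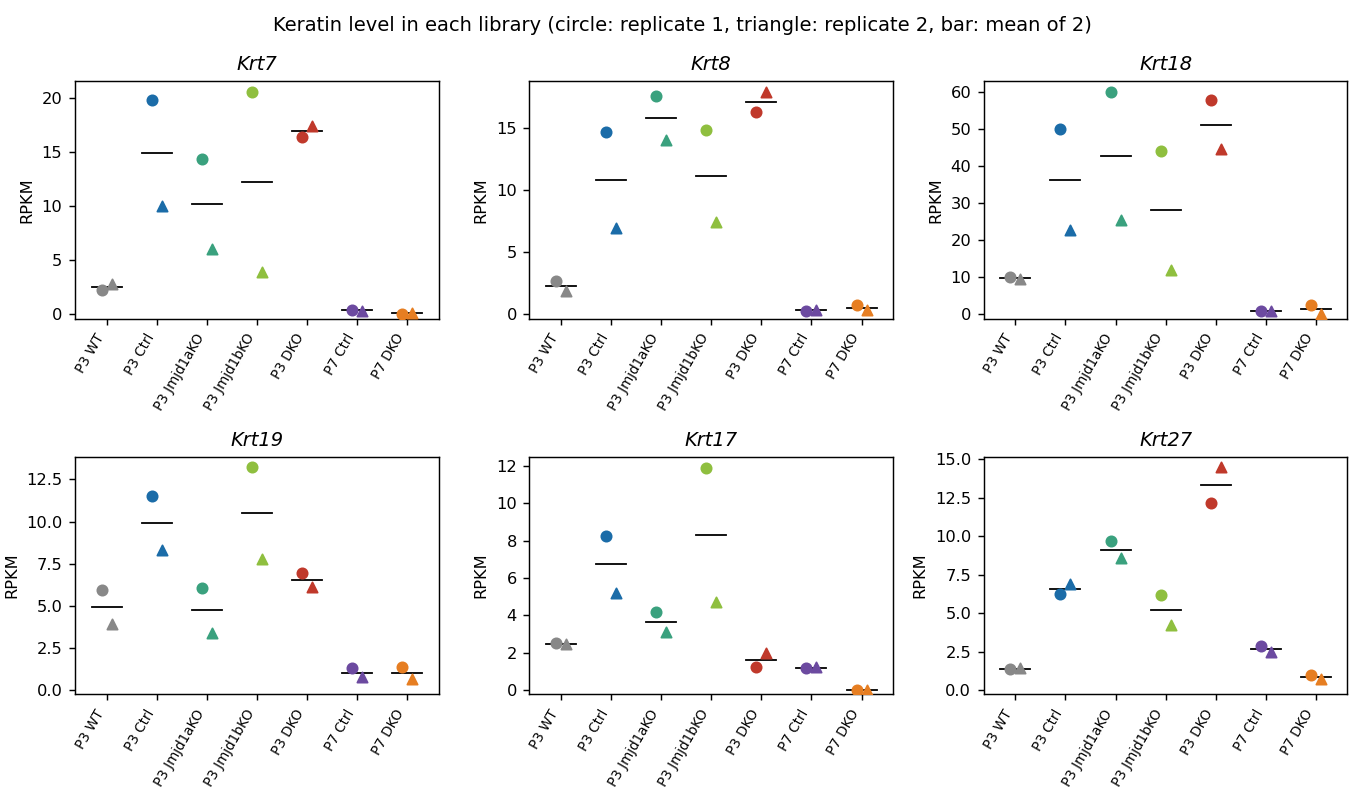
RPKM (linear axis, 1 panel per keratin) in each of the 14 libraries by group, with circles for replicate 1, triangles for replicate 2 and a bar at the mean of the 2. Krt7, Krt8 and Krt18 are near 0 at P7 and spread widely within P3 Ctrl and the single knockouts, whereas Krt27 is highest in P3 DKO (12.2 and 14.5 RPKM) and Krt17 is listed at 0 in P7 DKO.

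The 6 genes lie in both keratin clusters of the mouse genome (GENCODE M21 annotation, GRCm38). Krt7 (chr15:101411043-101430313, plus strand), Krt8 (chr15:101996698-102004482, minus strand) and Krt18 (chr15:102028180-102032027, plus strand) are in the chromosome 15 cluster of 24 annotated keratins, with the starts of Krt8 and Krt18 23.7 kb apart on opposite strands. Krt18 is the only type I gene there. Krt27 (chr11:99345565-99351104), Krt19 (chr11:100140810-100148665) and Krt17 (chr11:100256217-100261029), all on the minus strand, are in the chromosome 11 cluster of 27. All 6 are annotated as protein coding. Krt8 also has a processed pseudogene in the annotation, and how reads shared between such copies were counted is not given in the sources used here.

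Krt7 and Krt27 differ in the sequence before their starts as well as in their order of groups, and the 250 bases upstream of each RefSeq start (GRCm38.p6) are shown to make that visible. They are chr15:101412153-101412402 on the plus strand for Krt7 and chr11:99351119-99351368 on the minus strand for Krt27, written 5′ to 3′ on the gene's strand, and the RefSeq start of Krt7 lies inside the longer GENCODE gene. Capitals mark matches on either strand to the GC box GGGCGG in Krt7 and to the TATA box TATAAA in Krt27.
Krt7: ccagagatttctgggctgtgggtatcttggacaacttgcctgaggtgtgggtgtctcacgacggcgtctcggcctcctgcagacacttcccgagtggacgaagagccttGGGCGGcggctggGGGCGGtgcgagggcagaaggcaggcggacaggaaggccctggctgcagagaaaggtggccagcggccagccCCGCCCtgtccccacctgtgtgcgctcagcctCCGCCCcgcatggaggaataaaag
Krt27: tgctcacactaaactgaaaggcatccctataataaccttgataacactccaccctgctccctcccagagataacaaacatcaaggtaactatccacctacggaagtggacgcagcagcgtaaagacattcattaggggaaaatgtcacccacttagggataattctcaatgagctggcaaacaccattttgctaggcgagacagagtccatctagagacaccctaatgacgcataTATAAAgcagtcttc
The Krt7 stretch holds 4 GC boxes and 16 CpG dinucleotides and is 66.0% G and C. The Krt27 stretch holds 1 TATA box 9 bases before its end, 5 CpG and 44.8% G and C. Among 32851 promoters of the same length, 32.7% hold a GC box and 12.4% a TATAAA, and the median number of CpG is 6. Krt8 (3 CpG) and Krt18 (12 CpG) have neither motif in their stretches, which lie partly inside the GENCODE genes. Searches for the AP-1 site TGANTCA and for CCAAT, which 6.75% and 33.85% of all promoters hold, found none in the 4 genes. Krt17 and Krt19 were not analysed here for sequence. A match is a description of letters, not of a bound site.

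Control libraries of day 7 held less of all 6 keratins than those of day 3, with Krt18 and Krt7 changing most and Krt27 least. The mean RPKM of P3 Ctrl was 41.1 times that of P7 Ctrl for Krt18, 40.5 times for Krt7, 33.5 times for Krt8, 9.62 times for Krt19, 5.59 times for Krt17 and 2.50 times for Krt27. On the log2(RPKM + 1) scale, which understates changes of low genes, the fitted changes ± SE were -4.21 ± 0.68 for Krt18, -3.47 ± 0.60 for Krt7 and -3.08 ± 0.35 for Krt8. They were -2.42 ± 0.32 for Krt19, -1.78 ± 0.34 for Krt17 and -1.06 ± 0.18 for Krt27. In limma, 13.4% of the 14772 genes tested were called lower in this comparison at an adjusted p under 0.05. The 6 keratins were all among them, and nothing is read from that, because they were chosen for it. Calls ended for Krt7 without P3 Ctrl replicate 1 or P7 Ctrl replicate 2, for Krt17 without either of those or P7 Ctrl replicate 1, and for Krt27 without P7 Ctrl replicate 2. Depth also differed between these groups, at 38.7 and 43.5 M fragments in P3 Ctrl against 21.7 and 24.6 M in P7 Ctrl, and its part was not tested.

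P3 WT libraries held less of all 6 keratins than P3 Ctrl libraries, with no overlap. For 5 of the 6 the P3 WT level lay between those of P3 Ctrl and P7 Ctrl, and for Krt27 it lay below both. Such a non-overlapping rise from P3 WT to P3 Ctrl was found in 34% of all genes tested. The changes from P3 WT to P3 Ctrl were 2.11 ± 0.60 for Krt7, 1.79 ± 0.35 for Krt8, 1.70 ± 0.68 for Krt18, 1.67 ± 0.18 for Krt27, 1.12 ± 0.34 for Krt17 and 0.89 ± 0.32 for Krt19. In limma 0.406% of genes were called higher. Krt27 was the 1 keratin of the 6 among them, a call that ended without P3 Ctrl replicate 1 or either P3 WT library, or when only the P3 WT and P3 Ctrl libraries were fitted, and nothing is read from it. Without both libraries high in Sertoli transcripts the changes were the same and the SEs smaller (0.27 for Krt7), and 4 of the 6 (Krt7, Krt8, Krt17 and Krt27) were past the threshold, where 9.25% of all genes were called higher. P3 WT libraries were the shallowest of the series, and depth was not separated from genotype here.

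Loss of both demethylases went with opposite shifts of 2 type I keratins at day 3. Krt27 was 2.03 times as high in P3 DKO as in P3 Ctrl by mean RPKM (0.92 ± 0.18 on the log2 scale), whereas Krt17 was 4.22 times as high in P3 Ctrl as in P3 DKO (-1.56 ± 0.34). The other 4 genes changed by 0.70 ± 0.35 (Krt8), 0.57 ± 0.68 (Krt18), 0.24 ± 0.60 (Krt7) and -0.53 ± 0.32 (Krt19), each less than the replicate spread allows to call. Limma called 2.18% of all genes higher and 2.29% lower. Krt27 and Krt17 were among them, and nothing is read from that, because the 6 genes were chosen on these values. Both calls ended when any 1 library of P3 Ctrl, P3 DKO, P3 WT or P7 Ctrl was left out, or when only the P3 Ctrl and P3 DKO libraries were fitted. Without both libraries high in Sertoli transcripts they stayed past the threshold.

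Single losses gave intermediate values for these 2 genes only in the Jmjd1a group. The change from P3 Ctrl to P3 Jmjd1aKO was 0.42 ± 0.18 for Krt27 and -0.72 ± 0.34 for Krt17, and to P3 Jmjd1bKO it was -0.31 ± 0.18 and 0.18 ± 0.34. None of the 6 keratins was past the threshold in either single knockout, where limma called 0.0338% and 0.0203% of genes. At an unadjusted p under 0.05 it called 1484 and 268 genes. Without the library high in Sertoli transcripts in each group, which leaves a group of 1 that is assumed to vary like the others, Krt27 changed by 0.50 ± 0.17 in P3 Jmjd1aKO and -0.08 ± 0.17 in P3 Jmjd1bKO, and Krt17 by -0.55 ± 0.26 and 0.77 ± 0.26. None of these passed either.

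At day 7 the DKO groups held less of both Krt27 and Krt17. Krt27 was 3.15 times as high in P7 Ctrl as in P7 DKO (-0.99 ± 0.18), and Krt17, at 1.19 and 1.22 RPKM in P7 Ctrl, was listed at 0 in P7 DKO (-1.14 ± 0.34 on the log2(RPKM + 1) scale). Krt7 (-0.33 ± 0.60), Krt8 (0.20 ± 0.35), Krt18 (0.08 ± 0.68) and Krt19 (-0.03 ± 0.32) were not called. In this comparison 16.1% of all genes were called lower. Krt27 and Krt17 were among them, from which nothing is read, and the Krt17 call ended when any 1 of the 4 P7 libraries was left out or with no filter on low values. The DKO difference of Krt27 therefore had opposite signs at the 2 days, higher at P3 and lower at P7, with an interaction of -1.90 ± 0.25, where 22.9% of genes were called and 10.7% called lower. For Krt17 the DKO difference was negative at both days and the interaction was 0.42 ± 0.48.

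Between the DKO groups the change from P3 to P7 was -4.71 ± 0.68 for Krt18, -4.04 ± 0.60 for Krt7, -3.58 ± 0.35 for Krt8, -2.96 ± 0.18 for Krt27, -1.93 ± 0.32 for Krt19 and -1.36 ± 0.34 for Krt17. All 6 were called lower beside 30.5% of all genes, from which again nothing is read. Only the Krt17 call depended on 1 library, P3 DKO replicate 2. Krt27 had the smallest change of the 6 in controls and the fourth largest in DKO.

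**Figure D2:**
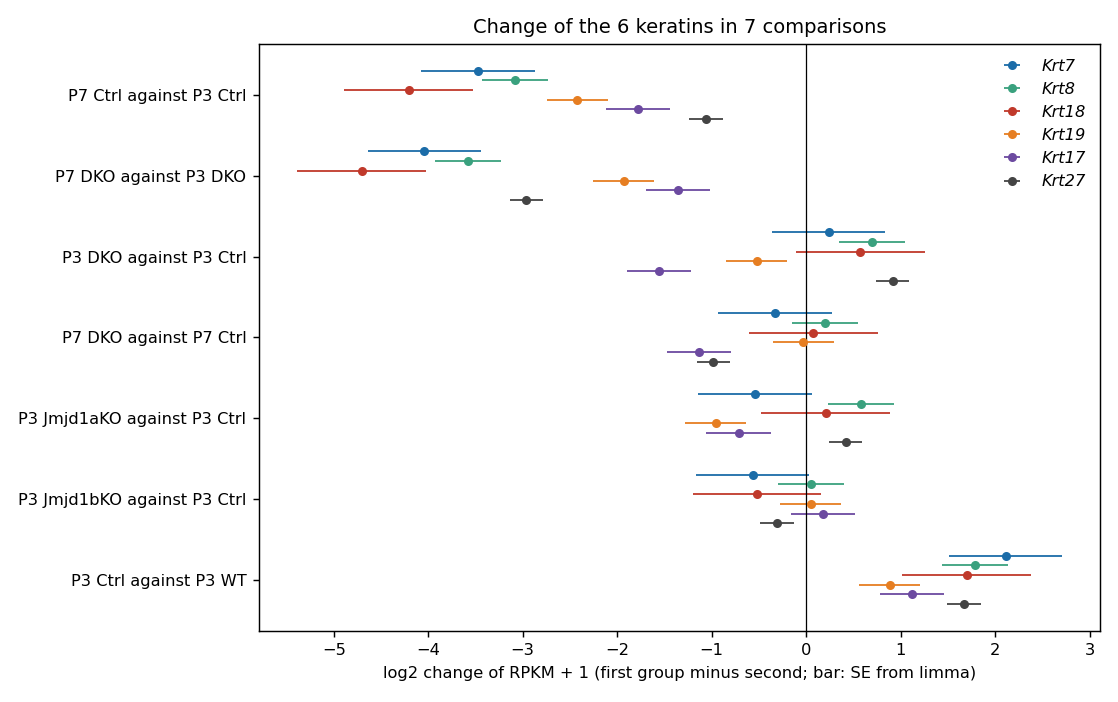
Fitted log2 change of RPKM + 1 (x axis, first group minus second) for the 6 keratins in 7 comparisons (y axis), with bars for the SE from limma. All 6 points lie left of 0 in both age comparisons, and Krt27 and Krt17 lie on opposite sides of 0 in P3 DKO against P3 Ctrl (0.92 and -1.56).

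The 6 genes made up most of the keratin transcripts at P3 and the smaller share at P7. Their summed level was 60.2 to 111 RPKM in the P3 Ctrl and P3 DKO libraries and 1.95 to 6.77 RPKM in the 4 P7 libraries. As a share of all 52 listed keratins it was 52.2 to 74.3% over the 10 P3 libraries and 12.8 to 34.6% over the 4 P7 libraries. Krt10, a type I keratin of suprabasal epidermis, was the keratin with the highest level in all 4 P7 libraries, at 3.05 and 3.33 RPKM in P7 Ctrl and 4.12 and 4.45 in P7 DKO. Its levels at P3, 3.14 to 5.60 RPKM, overlapped with these, and it was not called in any of the 8 comparisons.

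Of the other 46 keratins in the files, 28 stayed below 1 RPKM in every library, among them Krt5 and Krt14, the pair of basal epidermis, whose highest values were 0.102 and 0.0309 RPKM. The filter of at least 1 RPKM in at least 2 libraries was passed by 17, and 12 of these had no P7 library at 1 RPKM. A gene that passed only through its P3 libraries had to differ between the days, so their counts describe and support nothing. From P3 Ctrl to P7 Ctrl, limma called 5 of the 17 lower and none higher, with a median log2 change of -0.51 over the 17 against -0.01 over all genes tested. They were Krt222, Krt25, Krt28, Krt83 and Krt85, and all but Krt222 had no P7 library at 1 RPKM. Krt222 stood at 5.58 and 5.56 RPKM in P3 Ctrl and 2.67 and 3.23 in P7 Ctrl (-0.74 ± 0.19, limma adjusted p = 0.0235, lost without any 1 library of either group). Without both libraries high in Sertoli transcripts 12 of the 17 were called lower, where 20.4% of all genes were. From P3 DKO to P7 DKO 13 of the 17 were called lower, where 30.5% of all genes were, all 7 of type II and 6 of the 10 of type I, and Krt10, Krt12, Krt24 and Krt40 were not.

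Krt27 has close neighbours of the same root sheath group in the chromosome 11 cluster, Krt25, Krt26 and Krt28, and their type II partner Krt71 lies on chromosome 15. Krt25 stood at 1.71 and 1.20 RPKM in P3 Ctrl and 4.14 and 3.82 in P3 DKO, and Krt71 at 0.616 and 0.280 in P3 Ctrl and 2.21 and 1.80 in P3 DKO. Krt26 stood at 0.656 and 0.605 RPKM in P3 Ctrl and 1.26 and 2.03 in P3 DKO, and Krt28 at 2.71 and 3.24 in P3 Ctrl and 4.30 and 4.19 in P3 DKO. Both P3 DKO libraries lay above both P3 Ctrl libraries for all 4, as for Krt27. The changes were 1.03 ± 0.31 for Krt25, 1.06 ± 0.26 for Krt71, 0.68 ± 0.18 for Krt26 and 0.40 ± 0.24 for Krt28, and limma called none of them. Without both libraries high in Sertoli transcripts the changes were the same. Krt25, Krt71 and Krt26 were then past the threshold and Krt28 was not, and nothing is read from that. Krt26 reached 1 RPKM in the P3 DKO libraries alone and Krt71 in those and 1 library of P3 Jmjd1aKO, so the filter let them in through the group where they are high. Non-overlapping higher levels in P3 DKO were found in 13 of the 17 other keratins and in 30.8% of all genes tested, a count that the same filter favours.

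**Figure D3:**
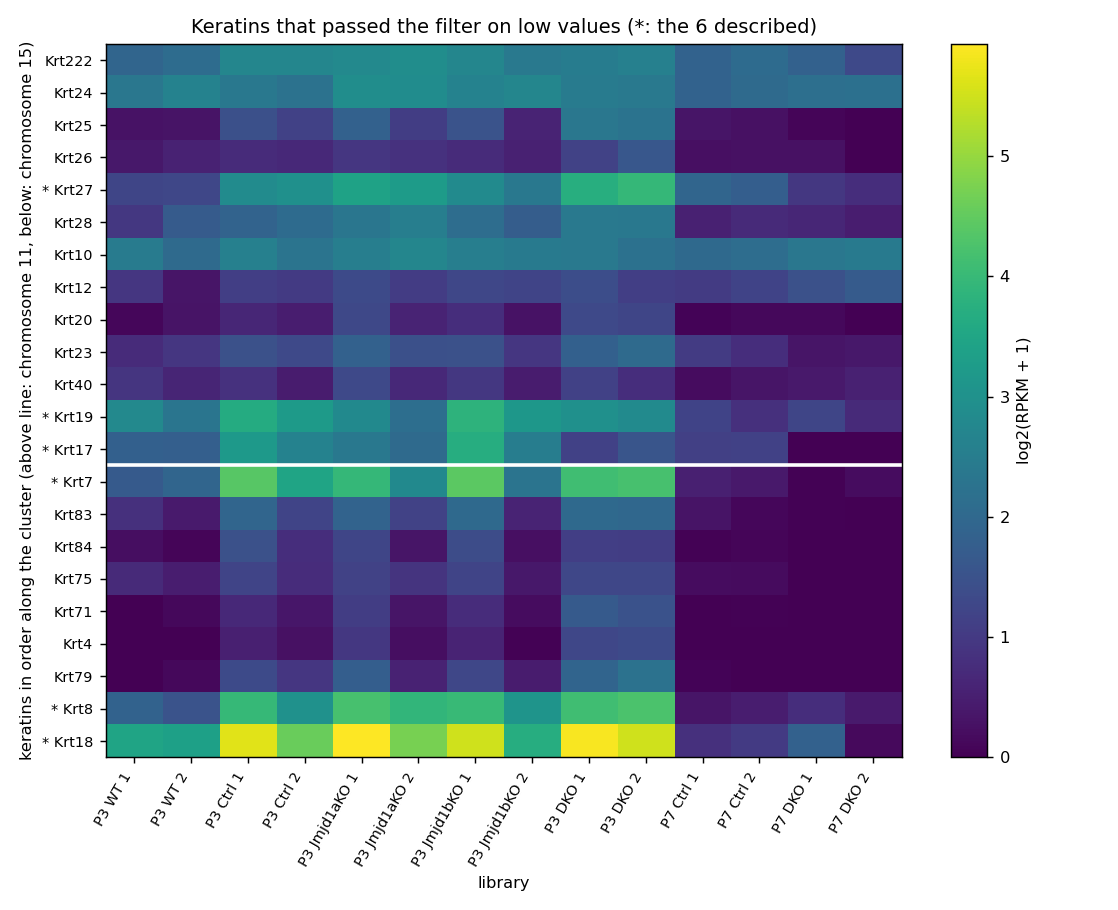
Log2(RPKM + 1) (colour) in 14 libraries (columns) of the 22 keratins that passed the filter and have annotated coordinates (rows, in order along the chromosome 11 cluster above the white line and the chromosome 15 cluster below it); Krt85 passed but is not drawn. The brightest rows at P3 include Krt18, Krt7, Krt8, Krt19 and Krt27, and the P7 columns are dark except for Krt10, Krt24, Krt222 and a few others.

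Other intermediate filament genes showed a mixed picture. Of 13 tested, limma called 5 lower and none higher from P3 Ctrl to P7 Ctrl, beside 13.4% and 9.94% of all genes, and the median change of the 13 was 0.04. Des, the muscle filament desmin, stood at 5.26 and 2.83 RPKM in P3 Ctrl and 0.293 and 0.240 in P7 Ctrl (-1.95 ± 0.34). Des and Prph had no P7 library at 1 RPKM and so passed the filter through P3 libraries alone, which fixed their direction. Lmna, which encodes the A-type nuclear lamins, stood at 124 and 53.3 RPKM in P3 Ctrl and 14.1 and 14.02 in P7 Ctrl and changed by -2.45 ± 0.52 (limma adjusted p = 0.0118, lost without P3 Ctrl replicate 1 or either P7 Ctrl library). Like the simple keratins, Lmna and Des were higher in replicate 1 of P3 Ctrl than in replicate 2. Vim, vimentin of mesenchymal and Sertoli cells, was at 11.7 and 8.37 RPKM in P3 Ctrl and 13.6 and 15.2 in P7 Ctrl and was not called (0.50 ± 0.86). It stood at 75.7 and 86.6 RPKM in the libraries high in Sertoli transcripts. In P7 DKO against P7 Ctrl, Ina, Nes and Bfsp1 were called lower and no gene of the list higher. Ina, the neuronal filament internexin, was at 10.2 and 10.7 RPKM in P7 Ctrl and 5.65 and 5.39 in P7 DKO (-0.81 ± 0.16, limma adjusted p = 0.00397).

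Desmosome and linker genes included the gene whose levels were most like those of Krt8. Dsp, desmoplakin, stood at 5.65 and 2.61 RPKM in P3 Ctrl, 6.49 and 5.97 in P3 DKO, 1.24 and 1.16 in P3 WT, 0.121 and 0.154 in P7 Ctrl, and 0.378 and 0.111 in P7 DKO. Its change was -2.11 ± 0.26 from P3 Ctrl to P7 Ctrl and -2.55 ± 0.26 from P3 DKO to P7 DKO, a description only, since it passed the filter through P3 libraries alone. Of 18 genes tested in this list, limma called 8 lower and 1 higher from P3 Ctrl to P7 Ctrl, beside 13.4% and 9.94% of all genes. Of the 8, Dsp, Dsc2, Dsg2, Perp and Pkp3 had no P7 library at 1 RPKM, and the other 3 had at least 1. Sfn, stratifin, which binds phosphorylated KRT18 and KRT17, stood at 15.1 and 13.7 RPKM in P3 Ctrl and 1.94 and 1.46 in P7 Ctrl and fell by 2.52 ± 0.21 (limma adjusted p = 0.000375). Sfn was also lower in P3 DKO, at 6.34 and 7.92 RPKM (-0.93 ± 0.21, limma adjusted p = 0.0399), the only linker called at P3, and that call ended with a pseudocount of 0.1, with only those groups fitted, and without any 1 library of P3 Ctrl or P3 DKO among others. Jup, plakoglobin of desmosomes and adherens junctions, was the 1 called higher at P7 (0.53 ± 0.14, limma adjusted p = 0.0247).

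At day 7, 6 of the 18 linker genes were called lower in P7 DKO than in P7 Ctrl and none higher, beside 16.1% and 17.4% of all genes. Jup stood at 8.55 and 9.14 RPKM in P7 Ctrl and 3.33 and 3.31 in P7 DKO (-1.19 ± 0.14, limma adjusted p = 0.000251). Plec, the linker plectin, stood at 9.30 and 9.19 RPKM in P7 Ctrl and 4.16 and 3.51 in P7 DKO (-1.09 ± 0.14, limma adjusted p = 0.00054). Tchp, which encodes the keratin-binding trichoplein, stood at 13.1 and 13.6 RPKM in P7 Ctrl and 4.89 and 5.15 in P7 DKO (-1.25 ± 0.26, limma adjusted p = 0.00553). Evpl, envoplakin of the plakin family, fell by 0.94 ± 0.15 (limma adjusted p = 0.00147). These 4 calls held without each single library, and Krt8 and Krt18 were not called in the same comparison.

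Genes of epithelial junctions included some with high levels at both days. Epcam, an adhesion molecule that spermatogonia also carry, was at 64.0 to 107 RPKM in all 14 libraries, and Spint2, an inhibitor of membrane proteases, at 102 to 162 RPKM. Of 19 genes tested, limma called 5 lower and 2 higher from P3 Ctrl to P7 Ctrl, beside 13.4% and 9.94% of all genes. Among the 5 was Cldn7, a claudin of tight junctions, which stood at 3.49 and 2.57 RPKM in P3 Ctrl and 0.213 and 0.506 in P7 Ctrl (-1.57 ± 0.32, limma adjusted p = 0.0098, lost without P3 Ctrl replicate 1 or either P7 Ctrl library). In P3 DKO against P3 Ctrl, Crb3, a polarity protein, was at 7.08 and 10.4 RPKM against 2.15 and 3.37 (1.37 ± 0.21, limma adjusted p = 0.0167, lost without either P3 Ctrl library or P3 DKO replicate 2). In P7 DKO against P7 Ctrl 7 of the 19 were called lower and 2 higher, beside 16.1% and 17.4% of all genes. Marveld2, tricellulin, was at 52.0 and 52.6 RPKM in P7 Ctrl and 16.0 and 13.3 in P7 DKO (-1.77 ± 0.22, limma adjusted p = 0.00035).

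Transcription factors known to act on keratin or epithelial genes were tested for 20 genes. From P3 Ctrl to P7 Ctrl limma called 5 lower (Tfap2c, Ets2, Lef1, Elf3 and Ovol1) and 1 higher (Sp1), beside 13.4% and 9.94% of all genes. Elf3 and Ovol1 had no P7 library at 1 RPKM. Tfap2c, a factor that germ cell precursors use, was at 5.68 and 5.03 RPKM in P3 Ctrl and 2.06 and 2.097 in P7 Ctrl (-1.04 ± 0.18, limma adjusted p = 0.00544, lost without P7 Ctrl replicate 2). In P3 DKO 3 were called higher (Klf4, Elf3 and Hoxc13) and 1 lower, beside 2.18% and 2.29% of all genes. The lower one was Dlx3, a homeobox factor of skin and hair. Dlx3 was at 30.4 and 37.7 RPKM in P3 Ctrl and 13.1 and 15.01 in P3 DKO (-1.21 ± 0.17, limma adjusted p = 0.0137, lost without P3 Ctrl replicate 2 or either P3 DKO library). In P7 DKO it was at 0.881 and 0.572 RPKM against 24.7 and 23.9 in P7 Ctrl (-3.88 ± 0.17, limma adjusted p = 2.46e-06). Grhl3, a grainyhead factor of the epidermal barrier, was at 2.26 and 1.31 RPKM in P7 DKO against 11.9 and 12.3 in P7 Ctrl (-2.25 ± 0.21, limma adjusted p = 7.97e-05). In P7 DKO 8 of the 20 were called lower and 1, Ets2, higher, beside 16.1% and 17.4% of all genes.

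Over all 14 libraries Krt7, Krt8 and Krt18 were most like each other among the 6 genes, whereas within P3 Krt27 was close to them as well. Pearson's r of log2(RPKM + 1) over 14 libraries was 0.967 for Krt8 with Krt18, 0.963 for Krt7 with Krt18 and 0.956 for Krt7 with Krt8, and over the 10 P3 libraries alone it was 0.914, 0.950 and 0.862. Without both libraries high in Sertoli transcripts these P3 values were 0.987, 0.951 and 0.960 over 8 libraries. Krt17 with Krt27 had the lowest r, 0.523 over 14 libraries and -0.05 over the 10 at P3. Krt27 followed Krt8 within P3 (r = 0.929, and 0.926 without both libraries), and also Krt18 and Krt7 (r = 0.854 and 0.807). Within P3, Krt17 followed Krt19 (r = 0.725, and 0.804 without both libraries). These points share library, depth and group, so the values describe these libraries only.

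Of the whole transcriptome, by the same r over 14 libraries, the gene most like Krt8 was Dsp (r = 0.995, 0.981 over the 10 P3 libraries, and 0.996 over the 12 libraries without the Sertoli-high pair), followed by Myo1a, Itga11, Atp2a3 and Tbx2 (0.981 to 0.985). Among the 5 genes most like Krt7 were Homer2, Dysf, Serinc2 and Sdc3 (0.985 to 0.989). Krt18 was most like Cpn1, a subunit of carboxypeptidase N (r = 0.988), then Adrb3, Rsph1, Sdc3 and Igdcc3. Krt19 was most like Lad1, ladinin of the basement membrane zone (r = 0.968), then Flnc, Tnnt2, Ror2 and Tcerg1l. Krt17 was most like Abi3 (r = 0.971), then Anxa11, Cyp4f18, Traf3ip2 and Gngt2. Krt27 was most like Ldhc, the lactate dehydrogenase of germ cells (r = 0.976), then Insl6, Mycbpap, Capn1 and Dpp9. Ldhc stood at 9.73 and 10.3 RPKM in P3 Ctrl and 17.7 and 16.99 in P3 DKO, and at 6.03 and 6.31 in P7 Ctrl and 3.68 and 2.41 in P7 DKO, the order of groups seen for Krt27.

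**Figure D4:**
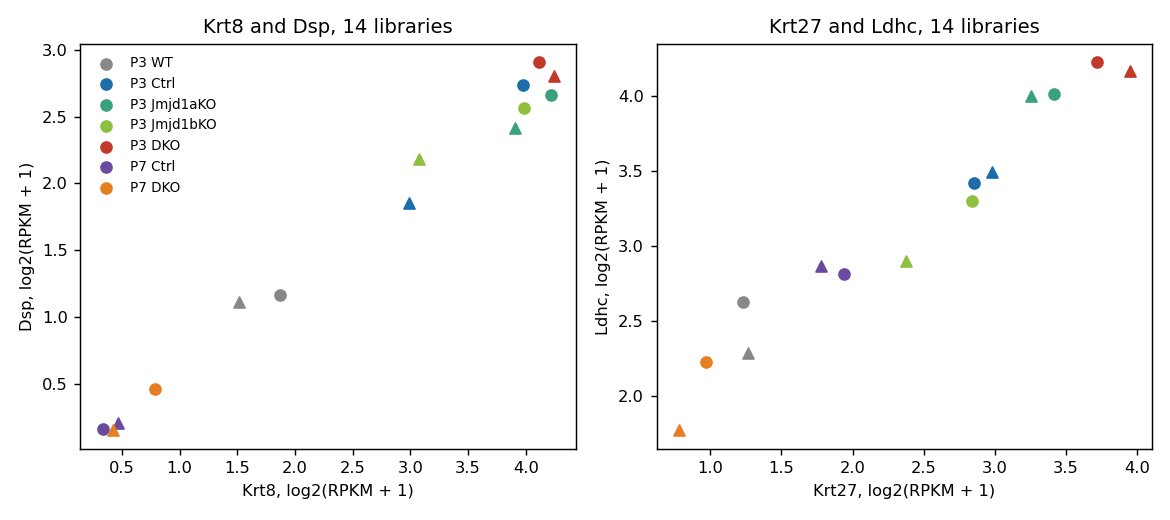
Log2(RPKM + 1) of Dsp against Krt8 (left) and of Ldhc against Krt27 (right), 1 point per library (circle: replicate 1, triangle: replicate 2), coloured by group. On the left the points run from the P7 libraries through P3 WT to the other P3 libraries (r = 0.995), and on the right the P3 DKO libraries are at the top (r = 0.976).

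Markers of other cells that express keratins or could be in a testis preparation were read in the same libraries. The libraries with 828 and 1016 RPKM of Sertoli markers had a summed Krt7, Krt8 and Krt18 level of 45.5 and 23.4 RPKM. That was below the 92.0 and 79.5 RPKM of the other replicate. The ratio of Krt18 to Krt8 was also lower in these libraries, at 1.81 and 1.61 against 3.42 and 2.96 in replicate 1. Their depth was 26.5 and 26.1 M fragments, against 40.7 and 43.0 M in replicate 1. The part of Sertoli transcripts in the keratin levels was not tested. Endothelial markers had a higher sum in most P3 libraries than at P7, but between P3 Ctrl and P7 Ctrl not every marker followed the keratins. Their sum over 7 genes was 31.8 and 18.8 RPKM in P3 Ctrl, 28.5 and 16.5 in P3 Jmjd1aKO, 30.6 and 13.2 in P3 Jmjd1bKO, 25.1 and 25.5 in P3 DKO, 8.75 and 10.996 in P3 WT, 9.51 and 9.68 in P7 Ctrl and 2.43 and 1.53 in P7 DKO. None of the 7 was at 0 in both libraries of a group. Pecam1, the highest of the 7 in P3 Ctrl, was at 17.4 and 7.95 RPKM there, while Emcn was at 0.516 and 0.101 RPKM. From P3 Ctrl to P7 Ctrl limma called 4 of the 6 tested lower (Pecam1, Cdh5, Tie1 and Vwf) and 1 higher. The shares of all genes were 13.4% and 9.94%. The higher one was Kdr, which stood at 1.68 and 1.98 RPKM in P3 Ctrl and 3.66 and 3.76 in P7 Ctrl (0.74 ± 0.16, limma adjusted p = 0.0141, lost without P3 Ctrl replicate 1 or either P7 Ctrl library). Between P3 DKO and P7 DKO all 6 were called lower, Kdr included (-1.445 ± 0.16), beside 30.5% of all genes. In P3 DKO against P3 Ctrl, Pecam1 changed by -0.45 ± 0.50 and Cdh5 by -0.13 ± 0.19, neither called. Tek was the 1 called, higher, beside 2.18% of all genes. Rete and duct epithelium markers had a sum over 6 genes of 19.1 and 14.6 RPKM in P3 Ctrl, 9.12 to 21.9 in the P3 knockout groups, 9.94 and 7.67 in P3 WT, 8.42 and 8.20 in P7 Ctrl and 3.63 and 3.34 in P7 DKO, made up mostly of Wfdc2 (12.7 and 9.07 RPKM in P3 Ctrl) and Pax8. Of the 3 tested, Pax8 was not lower in P7 Ctrl (6.34 and 5.90 RPKM) than in P3 Ctrl (5.09 and 4.78). Wfdc2 was called lower in that comparison, beside 13.4% of all genes. All 3 (Pax8, Pax2 and Wfdc2) were called lower from P3 DKO to P7 DKO, beside 30.5% of all genes. The part of endothelial and duct transcripts in the keratin levels was not tested.

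Of the markers of mesothelial cells, which carry Krt8, Krt18 and Krt19, Msln, Upk3b and Lrrn4 were at no more than 0.313 RPKM in any library. Upk1b was at 0.399 to 5.73 RPKM, so the sum over the 4 mesothelial markers found was 3.09 and 3.33 RPKM in P3 Ctrl and 0.795 and 0.826 in P7 Ctrl. Upk1b, the 1 tested, was called lower from P3 Ctrl to P7 Ctrl (-1.25) and from P3 DKO to P7 DKO (-1.98 ± 0.25). The shares of all genes were 13.4% and 30.5%. It passed the filter through P3 libraries alone, so these calls are a description only. The part of mesothelial transcripts in the keratin levels was not tested. Of the epidermal and hair follicle markers, Sprr1b was listed at 0 in all 14 libraries and Dsg4 did not exceed 0.0137 RPKM. Lor reached 7.95 RPKM, and Tchh also passed the filter on low values. Tchh changed by 0.17 ± 0.17 in P3 DKO against P3 Ctrl and by 0.37 ± 0.17 in P7 DKO against P7 Ctrl, neither called. Lor changed by 0.72 ± 0.38 in the first, not called. In the second it was called higher (1.51 ± 0.38, limma adjusted p = 0.0137), beside 17.4% of all genes. Lor was also called lower from P3 Ctrl to P7 Ctrl and from P3 DKO to P7 DKO, beside 13.4% and 30.5% of all genes. The sum over the 5 found was 5.37 and 4.32 RPKM in P3 Ctrl, 6.77 and 9.44 in P3 DKO, 1.10 and 1.01 in P7 Ctrl and 5.03 and 3.38 in P7 DKO. Leydig markers summed to at most 2.92 RPKM outside the libraries high in Sertoli transcripts, which had 19.0 and 13.2 RPKM. Leukocyte markers summed to 16.0 and 12.4 RPKM in P3 Ctrl, 7.44 and 5.92 in P3 DKO and 6.31 and 5.43 in P7 Ctrl, most of it Cd68 and Cd52. Stromal and myoid markers summed to 12.4 and 10.7 RPKM in P3 Ctrl and 18.9 and 18.9 in P7 Ctrl. Of the 7 tested, 5 were lower and 2 higher in P7 Ctrl, and none was called, beside 13.4% and 9.94% of all genes. Their sum was 19.0 and 19.6 RPKM in P3 DKO and 6.65 and 5.81 in P7 DKO. All 7 were lower in P7 DKO than in P3 DKO, and Myh11 and Pdgfra were called, beside 30.5% of all genes. Germ cell markers were level by comparison, at 1823 and 1866 RPKM in P3 Ctrl and 1934 and 1930 in P7 Ctrl.

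**Figure D5:**
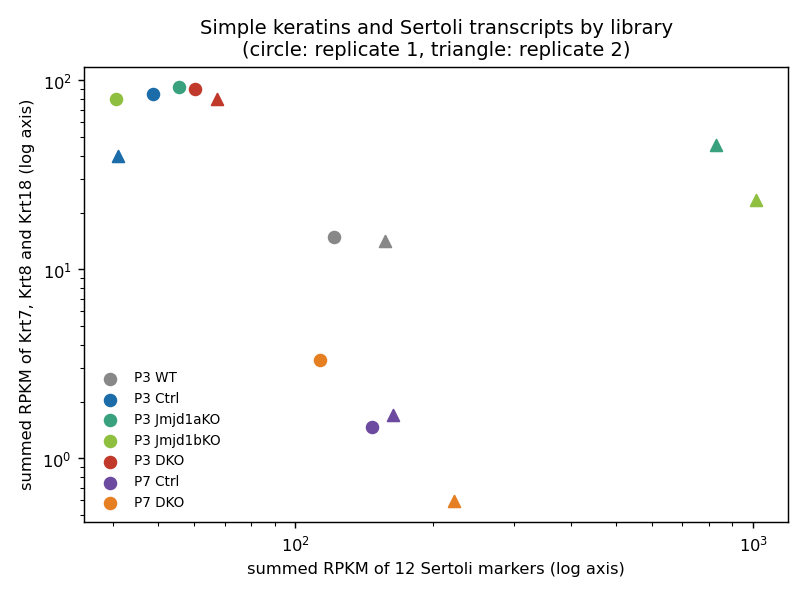
Summed RPKM of Krt7, Krt8 and Krt18 (y, log axis) against summed RPKM of 12 Sertoli markers (x, log axis), 1 point per library (circle: replicate 1, triangle: replicate 2), coloured by group. Replicate 2 of P3 Jmjd1aKO and P3 Jmjd1bKO sit far right at 828 and 1016 RPKM of Sertoli markers, with keratin sums of 45.5 and 23.4 RPKM that lie below replicate 1 of the same groups.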

How the data were processed

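The authors deposited 1 RPKM table per library, with 24340 gene symbols. The submitters' processing notes name TopHat2 2.1.1, Cufflinks 2.1.1 and mm10. Annotation and use of strand are not given in the sources used here. Per the labels' protocols, RNA was taken with a Qiagen AllPrep micro kit and libraries were made with a stranded TruSeq mRNA kit. The values are not counts, so no count test was run. Depth was estimated from the steps between RPKM values, with 64.4 to 75.0% of genes used within 0.2 of a whole fragment (chance 40%).

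Values were taken as log2(RPKM + 1) and the test covered genes that reached 1 RPKM in 2 or more libraries of 14 (14772 kept, 9568 removed). All groups were fitted together in limma 3.58.1 (trended eBayes, R 4.3.3, 7 residual degrees of freedom, two-sided, Benjamini-Hochberg over all genes tested, threshold 0.05) and tested on simulated data. The members and gene lists were chosen with earlier results of these data known. From each list the text names up to 4 genes per comparison by adjusted p and the 2 of highest level, and for each keratin the 5 genes of highest r, 1 of which is not reported here. Neighbours of Krt27 and low-level keratins and markers were added after their values were seen. Alternatives were a pseudocount of 0.1, no filter, median-centring, only the groups compared, a replicate block, leaving out each library, and leaving out both libraries high in Sertoli transcripts (chosen after seeing the data). Sequences come from RefSeq (GRCm38.p6), which held 4 of the 6 keratins, and coordinates from GENCODE M21.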

Additional observations from a re-analysis of the deposited data

Results flagged for a closer look

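The difference between P7 DKO and P7 Ctrl was compared with that between P3 DKO and P3 Ctrl by an interaction term in limma, where 22.9% of all genes were called. Negative values mean that the DKO level, relative to control, was lower at P7 than at P3. Among keratins the interaction was -1.90 ± 0.25 for Krt27 (a gene chosen for its pattern, given with no test), -1.08 ± 0.30 for Krt23 (limma adjusted p = 0.0305) and -0.81 ± 0.25 for Krt26, which reached 1 RPKM in the P3 DKO libraries alone and is given with no test. The Krt23 call ended without any 1 library of P3 Ctrl, P7 Ctrl or P7 DKO or without P3 DKO replicate 2. In limma the interaction was past the threshold for Dlx3 (-2.66), Grhl3 (-2.20), Marveld2 (-1.84), Crb3 (-1.78), Evpl (-1.34), Plec (-1.24) and Jup (-1.02), and no left-out library ended these calls. It was also past the threshold for Lef1 (-1.62), Esrp1 (-1.20), Itgb4 (-1.02), Tfap2c (-1.01), Lmnb1 (1.32) and Epcam (0.81), of which Epcam lost its call without P7 Ctrl replicate 1 and the others without 1 of several libraries, P7 Ctrl replicate 1 among them.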

How the results depend on the processing

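None of the 18 calls of the 6 keratins, or of the 84 calls of other named genes, changed direction under any alternative. The 18 all stayed past the threshold with a pseudocount of 0.1, median-centring, the replicate block and without both libraries high in Sertoli transcripts, 17 without the filter (all but Krt17 in P7 DKO against P7 Ctrl) and 15 with only the groups compared. Leaving out 1 library kept 12 to 18 of them.

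Counts of called genes moved by over 1.5 times as follows, the cause was not tested. P3 Ctrl against P3 WT called 104 genes, and 183 with a pseudocount of 0.1, 20 with only the groups compared, 776 with the replicate block, 2199 without both libraries high in Sertoli transcripts and 4 to 822 with 1 library left out. P3 DKO against P3 Ctrl called 661, and 365, 17, 1140 and 1931 in the same order, 1541 with no filter and 10 to 921 with 1 library left out. P3 Jmjd1aKO called 5, and 3, 9, 3 and 10 in that order and 3 to 8 with 1 left out. P3 Jmjd1bKO called 3, 9 with only the groups compared, 7 without both libraries and 3 to 7 with 1 left out. P7 Ctrl against P3 Ctrl called 3441, 5206 without both libraries and 486 to 4156 with 1 left out. With 1 left out, P7 DKO against P7 Ctrl called 2619 to 5325 (4954 in all) and the interaction 1635 to 3810 (3383).

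Median-centring moved the share called higher from 57.7 to 47.6% in P3 Ctrl against P3 WT, from 48.7 to 35.5% in P3 DKO against P3 Ctrl and from 53.2 to 64.5% in the interaction. Differences between replicates correlated over 0.1 in 7 of 21 pairs of groups (range -0.13 to 0.581). The highest was between P3 Jmjd1aKO and P3 Jmjd1bKO, whose replicates 2 are the libraries high in Sertoli transcripts. A shared trait of that kind also raises such values, so they cannot tell if the numbers pair the samples. No label states a pairing, and the main fit used none. Groups of 2 and the shallow P3 WT libraries limit the precision of low keratins.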

Other observations

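Outside the comparisons, the number of keratin genes at 1 RPKM or more was 23 in both P3 DKO libraries, 18 and 14 in P3 Ctrl, 9 and 10 in P3 WT, 8 and 6 in P7 Ctrl and 6 and 4 in P7 DKO. It was 21 and 14 in P3 Jmjd1aKO and 18 and 11 in P3 Jmjd1bKO. Within P3, the deepest libraries, those of P3 DKO (45.2 and 50.4 M fragments), had the most such keratins. The shallowest, those of P3 WT (13.6 and 14.97 M), had the fewest. In between, P3 Ctrl replicate 2 (43.5 M) had 14, P3 Jmjd1aKO replicate 1 (40.7 M) had 21 and P3 Jmjd1aKO replicate 2 (26.5 M) had 14. The P7 libraries, at 21.7 to 24.6 M, had fewer than P3 WT. The part of depth in these numbers was not tested. Krt24 and Krt222, type I genes at the edge of the chromosome 11 cluster, were above 1 RPKM in all 14 libraries, at 2.63 to 6.54 and 1.48 to 6.53 RPKM.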
